A study of Mus musculus with 5 samples.

Results

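The nuclei described here are stromal nuclei of interscapular brown adipose tissue (iBAT) from 3-month-old mice, the nuclei in which the genes of the fibroblast-like adipocyte progenitors were counted. A barcode counted as stromal with at least 500 unique molecular identifiers (UMIs, each a tag on 1 captured RNA molecule), at least 4 UMIs from at least 2 of Pdgfra, Col1a2, Col3a1, Dcn, Fbn1, Lvrn, Egfr and Bicc1, and at most 2 UMIs summed over Ptprc, Mrc1, Flt1, Cyyr1, Abcc9, Rgs5 and Cadm2, which mark immune, endothelial, mural and Schwann cells. Of 20307 nuclei, 1521 met this rule, or 7.49% (exact 95% binomial interval 7.13 to 7.86%). Of these, 71 held at least 1 UMI of Pi16 or Dpp4 and 1450 held none.

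The libraries came from mice kept on a C57BL/6J background. One was labelled WT, a littermate control carrying either Ucp1-Cre+/- or STX4 fl/fl. The other was labelled Ucp1-STX4KO and carried both, Ucp1-Cre+/- with STX4 fl/fl, so that syntaxin 4 is deleted where the brown adipocyte promoter of Ucp1 drives Cre and not, by design, in stromal cells. Both were deposited in 1 matrix in which barcodes end in the suffix 1 or 2, and no label ties a suffix to a genotype, so the values by suffix are given as those of 2 unnamed libraries and no WT against Ucp1-STX4KO comparison was made. A second matrix, with 3 libraries of 2-, 12- and 24-month-old C57BL/6J mice and again no map from suffix to age, was used to look at the same pattern in other nuclei. All 5 samples carry brown adipocytes as their labelled cell type, and the homogenisation was tuned for adipocyte nuclei, so the stromal nuclei are what remained of another compartment and their share is not a share of the tissue. Only 1 library was made per label. Nuclei were prepared from the iBAT of 4 male mice, and whether these were pooled in each library is not given in the sources used here.

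Adipose stromal progenitors lie around vessels and in the connective tissue septa of the depot, carry the platelet-derived growth factor receptor Pdgfra, and lay down collagens and other matrix. Some of them give rise to new adipocytes. In mouse fat a Pi16- and Dpp4-expressing interstitial state has been set apart from a committed preadipocyte state that expresses matrix of the basement membrane and early fat genes, and from a state marked by F3 that restrains fat formation.

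The stromal nuclei held 6711259 UMIs in all, and the middle nucleus had 3355 UMIs and 1799 genes. By library, 395 of 11201 nuclei with suffix 1 (3.53%, 3.19 to 3.88%) and 1126 of 9106 with suffix 2 (12.4%, 11.7 to 13.1%) were stromal. The libraries did not start from the same depth, because the smallest barcode held 2053 UMIs in suffix 1 and 424 in suffix 2. The stromal nuclei had medians of 3775 and 3148 UMIs. Only 23 barcode sequences occurred in both libraries, and 1 stromal nucleus carried such a sequence. With 1 library per genotype no test between groups can be made, and all intervals below cover counting error alone.

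Levels are given as CPM (counts per 1000000), the UMIs of a gene summed over all nuclei of a class and divided by all UMIs of that class. A ratio of 2 CPM values carries its exact 95% counting interval. A gene was counted as higher where its pooled ratio was at least 2 and above 1 in both libraries, and as lower where it was at most 0.5 and below 1 in both. Genes with fewer than 100 UMIs over the 2 classes were not counted, a filter that a gene can pass through 1 class alone. The classes were cut from the counts of the same nuclei, so these counts describe the classes and test nothing. The classes draw on the libraries unequally, since suffix 1 gave 30.6% of the stromal but 74.4% of the adipocyte UMIs. A pooled ratio to adipocyte nuclei therefore also carries the difference between libraries. Of 330 listed or named genes that could be compared within both, 237 had ratios more than 1.5 times apart in the 2 libraries, and in 118 the pooled ratio lay outside both. The ratios within suffix 1 and suffix 2 are therefore given beside the pooled ones. Adipocyte nuclei were chosen by 4 UMIs from at least 2 of Adipoq, Plin1, Lipe, Pnpla2 and Cidea and by no more than 2 UMIs over the 8 rule genes.

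The rule genes were counted at a median of 17 UMIs per stromal nucleus, 30 in suffix 1 and 13 in suffix 2. Egfr, the epidermal growth factor receptor, was counted in 95.3% of the stromal nuclei. Col3a1 was counted in 70.3%, the RNA-binding protein gene Bicc1 in 70.0%, Pdgfra in 51.7%, decorin (Dcn) in 50.2% and the aminopeptidase gene Lvrn in 29.2%. These values chose the nuclei and are not results. The 114 nuclei just inside the threshold, with exactly 4 UMIs of the rule genes, had 5750 CPM (5556 to 5949) of 26 other stromal genes summed and 11706 CPM of 8 adipocyte markers. The 156 nuclei just outside it, with 3 UMIs, had 5611 CPM (5449 to 5778) and 12374 CPM. Over all stromal nuclei the sums were 9387 and 5302 CPM, and over the 1085 nuclei with 10 or more rule gene UMIs they were 10582 and 3974 CPM. Adipocyte nuclei had 4947 and 11943 CPM, so the sums at the edge of the rule were near theirs, and those of nuclei with more rule gene UMIs were further away.

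Genes of fibroblasts and adipose progenitors that the rule did not use were higher in stromal than in 14207 adipocyte nuclei. Of 26 such genes, 24 had enough UMIs, 22 of these were higher and none was lower, against 15.3% higher and 13.3% lower among all 13858 genes. The median ratio was 50.8, beside 0.955 over all genes, and it was 103 within suffix 1 and 18.2 within suffix 2. Lama2, a laminin chain of the muscle and nerve basement membrane, was at 1362 CPM in stromal nuclei (2524 and 849 by suffix) and 8.57 in adipocyte nuclei, a ratio of 159 (148 to 171), with 396 and 56.8 by suffix. Dclk1 was at 183 CPM (235 and 160), 154 times its level in adipocyte nuclei (127 to 189), or 320 and 64.0 times by suffix. Scara5, a ferritin receptor, was at 177 CPM (264 and 139) with a ratio of 133 (110 to 161), or 267 and 59.3. Type VI collagen chains, which link cells to their matrix, were also far above adipocyte nuclei, with ratios of 41.4 for Col6a1 (96.6 and 16.0 by suffix), 101 for Col6a2 (213 and 44.9) and 94.2 for Col6a3 (296 and 27.5). The neighbouring ABC transporter genes Abca6, Abca8a and Abca9 on chromosome 11 had ratios of 103, 48.3 and 55.4, which were 263, 109.6 and 201 in suffix 1 and 34.3, 21.6 and 11.1 in suffix 2.

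The transcription factor gene Ebf1 was not among the higher genes. It had 3667 CPM in stromal and 4638 CPM in adipocyte nuclei, a ratio of 0.791 (0.781 to 0.801), and since it held 24612 of the 63000 stromal UMIs of this list, the list summed was 1.90 times the adipocyte level (1.88 to 1.91). Prrx1 went opposite ways in the 2 libraries, with ratios of 26.8 in suffix 1 and 0.486 in suffix 2. Tcf21 had no UMI in any of the nuclei compared and Osr1 had 29 UMIs in the stromal nuclei, so neither could be read.

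The stromal nuclei also stood apart from the other non-adipocyte nuclei. Mural nuclei (pericytes and smooth muscle) were chosen in the same way from Abcc9, Rgs5, Notch3 and Kcnj8, and endothelial nuclei from Flt1, Cyyr1, Ptprb and Pecam1, so those genes are high in them by choice. Against 533 mural nuclei, 15 of the 22 stromal genes with enough UMIs were higher, where 7.66% of all genes were higher and 5.71% lower. Pdgfrb, the pericyte growth factor receptor, was lower in stromal than in mural nuclei (ratio 0.158, 0.312 and 0.0906 by suffix). Against 487 endothelial nuclei, 17 of 22 were higher and Ly6a (Sca-1) was lower with a ratio of 0.139, where 10.5% of all genes were higher and 7.42% lower. Cd34 had 39.8 CPM in stromal nuclei, a ratio of 65.3 to adipocyte nuclei (133 and 28.2 by suffix). Against endothelial nuclei its ratio was 0.747, and it went opposite ways in the libraries, with 4.04 in suffix 1 and 0.411 in suffix 2.

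**Figure D1:**
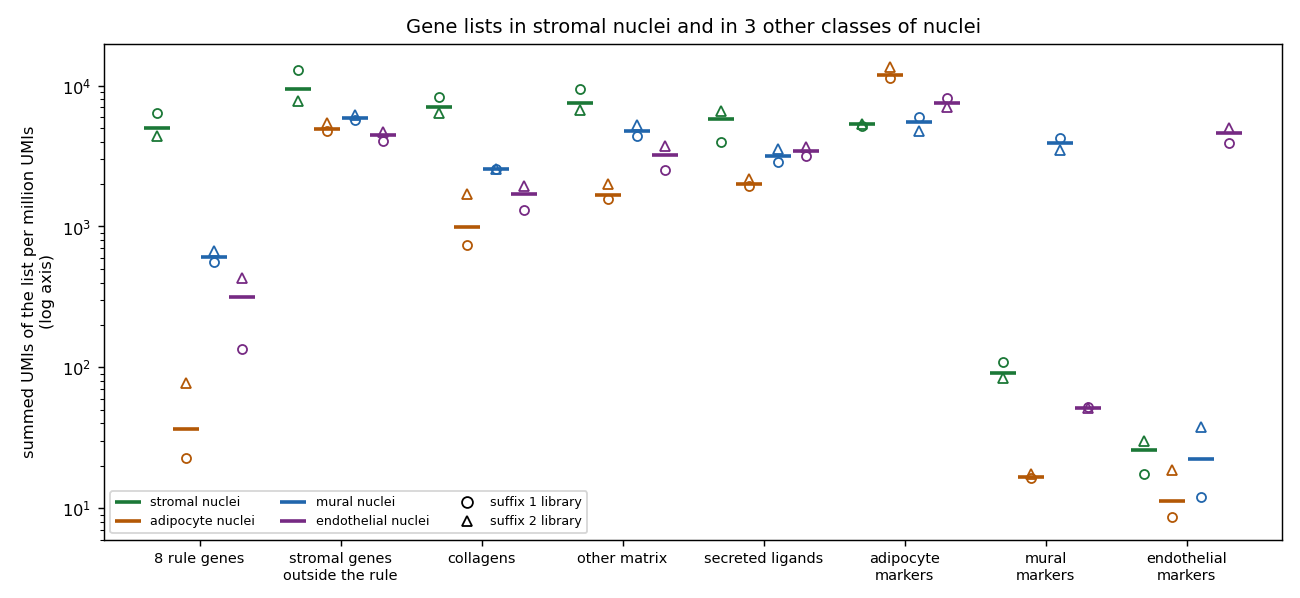
Summed CPM (log axis) of 8 gene lists in stromal, adipocyte, mural and endothelial nuclei, with a bar for both libraries pooled, circles for suffix 1 and triangles for suffix 2. Stromal nuclei lie above the other classes for the rule genes, the stromal genes outside the rule, the collagens, the other matrix genes and the ligands in both libraries, while their adipocyte marker level of 5302 CPM is close to the 5485 CPM of mural nuclei. The collagens include the rule genes Col1a2 and Col3a1.

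Most extracellular matrix genes that could be counted were higher in stromal nuclei. Of 23 collagen genes with enough UMIs among 27, 18 were higher than in adipocyte nuclei and none was lower. The 18 include Col1a2 and Col3a1, rule genes that chose the nuclei, so these were higher by choice. They also enter the median ratio given next. Among all genes 15.3% were higher and 13.3% lower. The median ratio of the 23 collagen genes was 41.4 (83.8 and 16.0 by suffix). The fibrillar chains Col1a1 and Col5a1 were at 136 and 253 CPM, with ratios of 63.0 (96.6 and 32.3 by suffix) and 53.4 (152 and 18.2). The basement membrane chains Col4a1 and Col4a2 were at 1134 and 791 CPM, 5.40 times (10.3 and 2.25 by suffix) and 3.67 times (5.18 and 1.84) their adipocyte levels. Col15a1, which sits at the edge of basement membranes, was at 781 CPM with a pooled ratio of 22.6, and the libraries were far apart, with ratios of 271 in suffix 1 and 6.53 in suffix 2. Col4a5, Col7a1, Col12a1, Col23a1 and Col27a1 did not pass in either direction, with ratios of 0.895, 0.645, 1.22, 1.32 and 0.748.

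Among 43 other matrix genes, 36 could be counted, 31 were higher and 1, Ltbp2, was lower (ratio 0.273 pooled, 0.452 and 0.415 by suffix). The higher and lower ones were 86.1% and 2.78% of the 36, beside 15.3% and 13.3% of all genes. Ltbp1, which binds latent TGF-beta in the matrix, was at 385 CPM with a ratio of 162 (293 and 66.3 by suffix). Microfibril gene Mfap5 was at 47.2 CPM (ratio 150, 365 and 55.1), fibulin gene Fbln2 at 103 CPM (ratio 129, 324 and 45.9) and the tenascin gene Tnxb at 436 CPM (ratio 97.4, 154 and 48.9). The matrix-degrading protease genes Mmp2 and Mmp14 were at 106 and 103 CPM, with ratios of 104 (136 and 50.5 by suffix) and 106 (148 and 47.7). Their inhibitor genes Timp2 and Timp3 were at 46.6 and 425 CPM, with ratios of 31.3 (80.5 and 11.1) and 11.5 (9.15 and 24.1).

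Secreted signals formed a second group. Of 48 ligand genes, 34 could be counted, 25 were higher and 2 were lower than in adipocyte nuclei, where 15.3% of all genes were higher and 13.3% lower. Ntf3, which encodes neurotrophin 3, was at 103 CPM (207 and 56.9) against 0.546 in adipocyte nuclei, a ratio of 188 (142 to 255), with 459 and 69.3 by suffix. Bmp5, a bone morphogenetic protein gene, was at 112 CPM with a ratio of 140 (301 and 65.2 by suffix). Rspo3, an enhancer of Wnt signalling, was at 18.9 CPM with a ratio of 139 (78.2 to 267), or 1035 and 31.8 by suffix. The 1035 rests on a level of only 0.0282 CPM in adipocyte nuclei of suffix 1, so its size is loosely set. Fgf10, a fibroblast growth factor that acts in adipose development, was at 1875 CPM, 445 in suffix 1 and 2506 in suffix 2. Its ratio to adipocyte nuclei was 44.1 with both libraries pooled, 86.7 and 16.6 by suffix. The axon guidance genes Slit2 and Slit3 were at 293 and 1909 CPM. The pooled ratio of Slit2 was 20.8, above both the 4.89 of suffix 1 and the 11.5 of suffix 2, and that of Slit3 was 9.91, with 31.5 and 3.42 by suffix. Vegfa and betacellulin (Btc) were the lower ones. Their pooled ratios of 0.464 and 0.295 lay below those within the libraries, 0.478 and 0.564 for Vegfa and 0.578 and 0.424 for Btc.

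Of 39 receptor genes that could be counted, 14 were higher (35.9%, beside 15.3% of all genes) and 4 were lower (10.3%, beside 13.3%). Ror1, a Wnt5a receptor, was at 475 CPM with a ratio of 175 (370.0 and 72.1 by suffix), and the angiotensin receptor Agtr1a at 25.03 CPM with a ratio of 25.9 (59.1 and 10.8). The 4 lower genes were Ntrk3, Nrp2, the thyroid hormone receptor Thrb and the adrenergic receptor Adra1a, with pooled ratios of 0.251, 0.224, 0.469 and 0.1996. All 4 lay below the ratios within the libraries, which were 0.369 and 0.330 for Ntrk3, 0.401 and 0.286 for Nrp2, 0.507 and 0.482 for Thrb, and 0.394 and 0.2496 for Adra1a.

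Among 38 transcription factor genes, 32 could be counted, with 15 higher and 2 lower. These were 46.9% and 6.25% of the 32, beside 15.3% and 13.3% of all genes. Gli3 and Gli2, which carry Hedgehog signals, were at 176 and 117 CPM, with ratios of 130 (368 and 42.7 by suffix) and 35.7 (28.8 and 29.2). Zfp521, a repressor of adipocyte commitment, was at 270 CPM with a ratio of 59.9 (113 and 23.5), and the mesodermal factor Tbx15 was at 347 CPM with a ratio of 22.1 (23.3 and 10.9). Pparg and Cebpa, the core factors of fat cell differentiation, were the lower ones at 1914 and 25.9 CPM, with ratios of 0.483 (0.457 and 0.420 by suffix) and 0.474 (0.596 and 0.563). Ebf2, which marks brown fat precursors and brown adipocytes, was at 1470 CPM in stromal and 1216 CPM in adipocyte nuclei (ratio 1.21, 1.18 to 1.23). Prdm16 was at 329 and 531 CPM (ratio 0.619, 0.418 and 0.576 by suffix).

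Taking genes by the size of their ratio, with at least 200 stromal UMIs and the rule genes set aside, the 10 furthest above adipocyte nuclei were Hs3st3a1, Egfros, Antxr1, Rhoj, Ntf3, Ror1, Gfpt2, Slco2a1, Ltbp1 and Fndc1. Hs3st3a1, a heparan sulfate sulfotransferase gene, was at 34.1 CPM with a ratio of 271 (888 and 30.1 by suffix), but its level was 100 CPM in suffix 1 and 4.94 in suffix 2. Rhoj, a small GTPase gene, was at 2268 CPM (1510 and 2602) with a ratio of 193 (353 and 77.7). Antxr1, a collagen-binding receptor gene, was at 230 CPM (171 and 256) with a ratio of 197 (506 and 71.6). Egfros is an antisense gene inside Egfr (chromosome 11, 16815431 to 16830702 in GRCm38, minus strand), and since the strand setting of the counting is not given in the sources used here, its reads may belong to Egfr.

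The rule let in some nuclei with genes of other cell types. The 8 adipocyte markers summed to 5302 CPM in stromal nuclei, 5182 and 5356 by suffix, and all 8 were found in both libraries. Mural markers summed to 91.8 CPM (109.5 and 84.0) against 3930 in mural nuclei, and endothelial markers to 26.1 CPM (17.5 and 29.8) against 4602 in endothelial nuclei. These 2 lists and the macrophage and Schwann lists hold exclusion genes, which the rule capped in stromal nuclei. The mural and endothelial nuclei were also chosen by genes of their lists. Low sums and these gaps are therefore set in part by the choice of nuclei. Macrophage markers were at 37.4 CPM (11.7 and 48.7). Skeletal muscle markers were at 90.1 CPM in suffix 1 and 881 in suffix 2, but 3588 of their 4289 UMIs came from 11 nuclei, subgroup 8 of the clustering described next. Without these nuclei they were at 9.09 and 148 CPM. Schwann markers were at 274 CPM, and 211 CPM of these were Scn7a, a sodium channel gene counted in 48.0% of stromal nuclei. Sox10, which defines Schwann cells, was at 0 in suffix 1. The mesothelial genes Msln, Upk3b and Krt19 were at 0 in both libraries, as were the tendon genes Tnmd and Kera.

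Clustering the stromal nuclei, with genes scaled within each library, gave 10 subgroups of 506, 501, 120, 115, 95, 89, 66, 11, 10 and 8 nuclei. A subgroup is described by the genes that formed it, so its leading genes are a description. Subgroups 1 and 2 held most stromal nuclei and had adipocyte markers of 1912 and 1799 CPM. They differed in where their nuclei came from. The leading genes of subgroup 1 were mostly rare ones, such as the cell cycle gene Top2a with 21 UMIs in it and none outside it, all from suffix 2, and Adgrl3 with 204 UMIs from suffix 1 and 11 from suffix 2. Subgroup 1 had 234 nuclei of suffix 1 and 272 of suffix 2, while subgroup 2 had 35 and 466. Subgroup 2 was led by Cyp4f39, Sema3g and Slco2a1, a prostaglandin transporter gene with 4 UMIs from suffix 1 and 1712 from suffix 2 in that subgroup. The vitamin D receptor gene Vdr was at 772 CPM in subgroup 2 and 37.8 in subgroup 1, and over all stromal nuclei it had no UMI in suffix 1 and 352 CPM in suffix 2. Since subgroup 2 lies almost wholly in 1 library, a cell state and a library cannot be told apart there.

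Subgroups 3, 4 and 8, with 246 nuclei together, had adipocyte markers at 9248, 13720 and 6678 CPM, at or above 5972 CPM, which is 50% of the level in adipocyte nuclei. Subgroup 3 had a median of 8080 UMIs, Ucp1 at 979 CPM and Pparg at 3382 CPM, and was led by genes such as Cyp2b10 and Ano1. Subgroup 4 had 111 of its 115 nuclei in suffix 2, a median of 9490 UMIs and Gnal among its leading genes. Subgroup 8 had muscle markers at 27701 CPM. None of the 10 leading genes of subgroups 3 and 4 is on the stromal or interstitial lists, which also holds for subgroups 1, 2, 5 and 6. For the 246 nuclei of subgroups 3, 4 and 8 the stromal label goes against the adipocyte and muscle genes. Their rule genes, which chose them, were at 2195, 1131 and 733 CPM. These nuclei were set apart after their values were seen, and values without them are given for some of the results. Without them the adipocyte markers of the stromal nuclei summed to 2191 CPM in suffix 1 and 1887 CPM in suffix 2. Subgroup 6, with 89 nuclei (8 and 81 by suffix) and a median of 1410 UMIs, was led by genes such as Atp6v0d2, Gpnmb and Lgals3, which macrophages express. Their 43, 53 and 31 UMIs in it all came from suffix 2, so a cell state and a library cannot be told apart here either. Subgroup 6 had macrophage markers at 204 CPM and mitochondrial genes at 4069 CPM, but kept 5873 CPM of the rule genes. No doublet caller was run, so how many of these barcodes hold more than 1 nucleus was not tested.

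**Figure D2:**
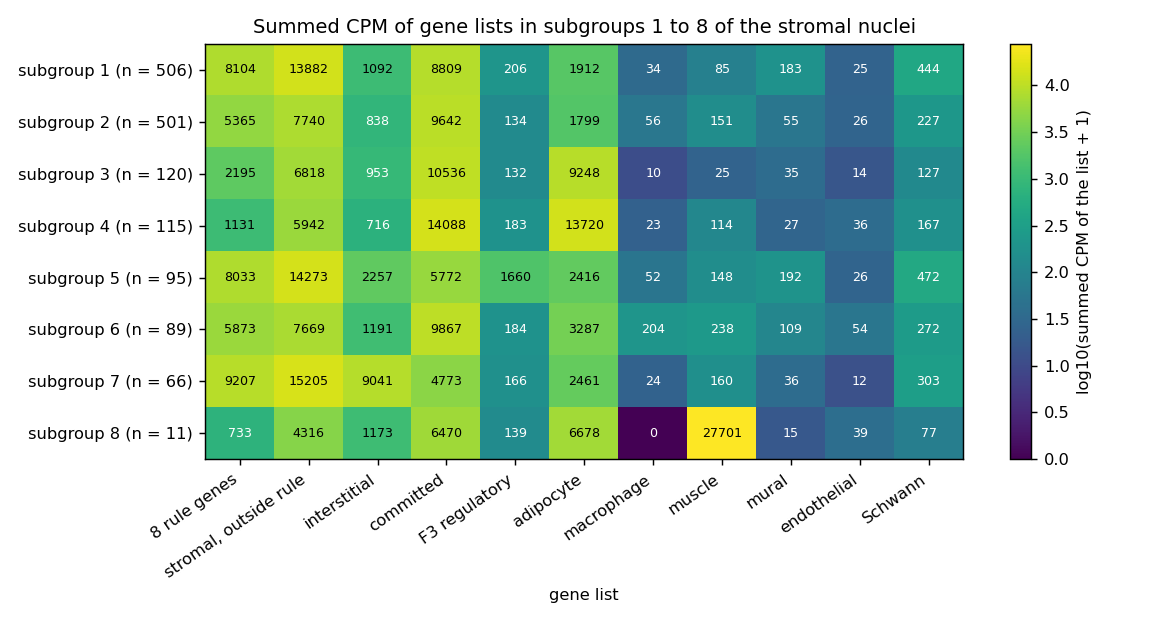
Summed CPM of 11 gene lists in subgroups 1 to 8, coloured by log10(CPM + 1) and printed in each cell. Subgroup 7 has the highest interstitial level at 9041 CPM, subgroup 5 the highest F3 regulatory level at 1660 CPM, subgroups 3 and 4 the highest adipocyte levels, and subgroup 8 a muscle level of 27701 CPM.

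Subgroup 5, with 95 nuclei (23 and 72 by suffix), was led by Pcdh11x, the complement gene C7, Epha3, Prdm6 and Gdf10. C7 had 1195 CPM in it and 7.92 CPM in the other stromal nuclei. Genes of the F3 regulatory state summed to 1660 CPM in subgroup 5 and to between 132 and 206 CPM in subgroups 1 to 4, 6 and 7. Fmo2 was at 361 CPM and Mgp at 195 CPM there, against 15.5 and 8.53 CPM in subgroup 1. Gdf10 belongs to this list and also led the subgroup. Subgroup 7, with 66 nuclei (22 and 44), was led by Pi16, Adamts16, Dact2, Dpp4 and Opcml. It held 41 of the 71 nuclei with a Pi16 or Dpp4 UMI, and 62.1% of its nuclei had one.

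Pi16, a protease inhibitor gene (chromosome 17, 29317680 to 29330593 in GRCm38), and Dpp4, a dipeptidyl peptidase gene (chromosome 2, 62330073 to 62412231), were then used to split the stromal nuclei. A UMI of either was found in 23 of 395 stromal nuclei of suffix 1 (5.82%) and 48 of 1126 of suffix 2 (4.26%), or 4.67% in all (3.66 to 5.85%). In adipocyte nuclei, which should lack both genes and had a deeper median of 5935 UMIs, 0.612% had one (0.491 to 0.755%). With every nucleus thinned to 1000 UMIs the shares were 2.87% of 1499 stromal and 0.127% of 14140 adipocyte nuclei, and 22 stromal nuclei were too shallow to enter. So the stromal share was above that of adipocyte nuclei at equal depth, and those were chosen to hold at most 2 rule gene UMIs. Without thinning, the share was 2.05% (0.989 to 3.74%) in endothelial and 0.750% (0.205 to 1.91%) in mural nuclei. Their medians of 1864 and 2592 UMIs were lower than the stromal one, and a comparison with them at equal depth was not made.

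Pi16 and Dpp4 tended to be counted in the same nuclei. Each was found in 45 stromal nuclei and both in 19. Dpp4 was in 42.2% of the nuclei with Pi16 (27.7 to 57.8%) and in 1.76% of those without (1.15 to 2.57%). By library these shares were 47.4% and 1.06% in suffix 1, and 38.5% and 2.00% in suffix 2. Of the 71 nuclei, 33 held a single UMI of the pair, so some nuclei of the same state will be among those without one. With and without a Pi16 or Dpp4 UMI, the median depth was 3097 and 3365.5 UMIs. By library it was 3556 and 3852 in suffix 1, and 2373.5 and 3183 in suffix 2. Adipocyte markers were at 5331 and 5301 CPM in the 2 classes. Muscle markers were at 107 CPM with and 662 CPM without a Pi16 or Dpp4 UMI, and without the 11 nuclei of subgroup 8, none of which had such a UMI, at 107 and 106 CPM. Mural markers were at 24.9 and 94.7 CPM, and their part in the comparisons that follow was not tested.

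Genes of the interstitial progenitor state, with Pi16 and Dpp4 left out, were higher in the nuclei that held a Pi16 or Dpp4 UMI. The 22 genes summed to 5604 CPM in these nuclei and 999 CPM in the others, a ratio of 5.61 (5.30 to 5.93), with 5.90 in suffix 1 and 5.33 in suffix 2. Of 13 with at least 100 stromal UMIs and 20 in each library, 12 were higher, where 3.27% of 7853 genes were higher. Their median ratio was 6.04, beside 0.980 over all genes. Semaphorin gene Sema3c was at 637 CPM (622 and 648) against 24.6 (21.2 and 26.0), a ratio of 25.9 (20.8 to 32.3). Anxa3 was at 274 against 12.4 CPM (ratio 22.0), the transcription factor gene Creb5 at 1152 against 72.8 (ratio 15.8) and Limch1 at 477 against 32.5 (ratio 14.7). Cd55, a complement regulator used to sort these cells, was at 235 CPM against 38.9, a ratio of 6.04 (11.4 and 4.92 by suffix). Dpt was the gene that did not pass, at 78.2 and 80.4 CPM.

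Some genes of the list were too rare to be counted. Dact2 had 29 UMIs in the 71 nuclei and 8 in the 1450 others, and Efhd1 had 23 and 19. Wnt2, often named with this state, had 3 and 33 UMIs, a ratio of 2.08 whose interval ran from 0.408 to 6.63.

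Genes of the committed preadipocyte state went the other way. The 18 genes summed to 6127 CPM in nuclei with a Pi16 or Dpp4 UMI and 10118 CPM in the others, a ratio of 0.606 (0.577 to 0.635), with 0.612 and 0.636 by suffix. Of 16 that could be counted, 7 were lower and none was higher, where 6.94% of all genes were lower. These were Lpl, Ggt5, Col4a1, Col4a2, Col15a1, Cxcl14 and Smoc2. Col15a1 was at 242 CPM (162 and 305) against 805 (686 and 855), a ratio of 0.301 (0.233 to 0.382). Lipoprotein lipase (Lpl) was at 964 against 2109 CPM, a ratio of 0.457 (0.404 to 0.515). Pparg was at 1486 against 1932 CPM with a ratio of 0.769 (0.696 to 0.848), and Fabp4 at 1241 against 1305 CPM with a ratio of 0.951 (0.852 to 1.06), so these fat cell genes were not among those that passed. Without the 246 adipocyte- and muscle-rich nuclei the interstitial ratio was 7.16 and the committed ratio 0.513.

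**Figure D3:**
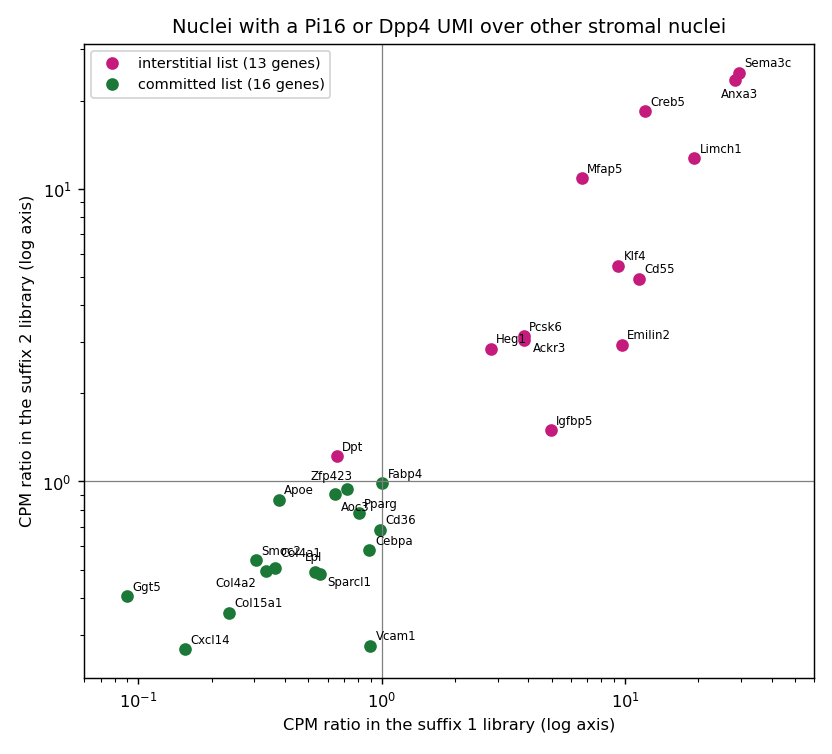
CPM ratio of nuclei with a Pi16 or Dpp4 UMI over the other stromal nuclei, for each countable gene of the interstitial list (13 genes) and the committed list (16 genes), in suffix 1 (x, log axis) and suffix 2 (y, log axis). The other 12 interstitial genes lie above 1 in both libraries, while Dpt is below 1 in suffix 1, and of the committed genes only Fabp4 exceeds 1, with ratios of 1.01 in suffix 1 and 0.988 in suffix 2.

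The split reached other signals and matrix. The 10 genes with the largest ratios were Opcml, Sema3c, Anxa3, Col14a1, Fn1, Galnt16, Ston2, Creb5, Limch1 and Rgs6. Opcml, a cell adhesion gene, was at 1344 CPM (1390 and 1308) against 31.3 (11.9 and 39.6), a ratio of 43.0 (117 and 33.1 by suffix). Fibronectin (Fn1) was at 164 against 10.1 CPM (ratio 16.2, 44.8 and 11.5 by suffix) and Col14a1 at 370 against 19.6 (ratio 18.9, 33.8 and 17.2). Fibrillin gene Fbn1, itself a rule gene, was at 1366 against 302 CPM (ratio 4.52), whereas Pdgfra was at 149 against 312 CPM (ratio 0.479, 0.253 and 0.745 by suffix). Of 24 countable ligands, 7 were higher (29.2%, beside 3.27% of all genes) and 5 lower (20.8%, beside 6.94%). Fgf2 was at 149 against 19.8 CPM (ratio 7.56), and Pdgfd at 380 against 145 (ratio 2.63, 1.62 and 3.47 by suffix). Fgf10 was at 516 against 1935 CPM (ratio 0.267, 0.225 to 0.314), Slit2 at 64.0 against 303 (ratio 0.211, 0.473 and 0.243 by suffix) and Ntf3 at 21.3 against 107 (ratio 0.2003, 0.185 and 0.108). Bmp5 had 1 UMI in the 71 nuclei and 748 in the others, a ratio of 0.0306 (0.000773 to 0.171).

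The 10 genes with the lowest ratios had no UMI at all in the nuclei with Pi16 or Dpp4. They were the first of 28 such genes when ordered by their UMIs in the other nuclei. Lin7a had 221 UMIs in the others and Sncaip 214, and a count of 3 over the class would put them 3.22-fold and 3.12-fold lower. Thrombospondin 1 (Thbs1) had 205 UMIs in 127 of the other nuclei and would be 2.99-fold lower at that count. The endothelin receptor gene Ednra had 181 UMIs and was at least 2.64-fold lower.

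The same rule was applied to the 3 aging libraries, which hold other nuclei. It found 798 stromal nuclei among 30000 (2.66%), 403, 204 and 191 by suffix, and 37 of them had a Pi16 or Dpp4 UMI (4.64%, 3.29 to 6.33%). Interstitial genes summed to 5957 CPM in these 37 and 1590 CPM in the others, a ratio of 3.75 (3.42 to 4.10), and the committed genes had a ratio of 0.485 (0.436 to 0.537). In suffixes 1 and 2, with 23 and 13 such nuclei, the interstitial ratios were 3.23 and 5.59 and the committed ratios 0.502 and 0.520. In suffix 3 only 1 of 191 nuclei had a UMI (0.524%, 0.0133 to 2.88%), and its ratios of 1.35 and 1.30 had intervals that included 1. All 10 genes named above as highest had a ratio of at least 2 in the aging nuclei, among them Opcml (12.7) and Sema3c (11.6). No share over all genes was taken in the aging nuclei, so this count and the next have no background beside them. Of the 10 lowest, 8 had a ratio below 1 in the aging nuclei, but only 3 of these, Thbs1 at 0.106 (0.0128 to 0.387), Rem1 and Txndc16, had an interval that lay below 1. Rem1 and Txndc16 had no UMI in the 37 nuclei. The intervals of the other 7 included 1, those of Sncaip at 1.20 and Heph at 2.54 among them. Pparg was at 171 against 599 CPM there, a ratio of 0.285.

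**Figure D4:**
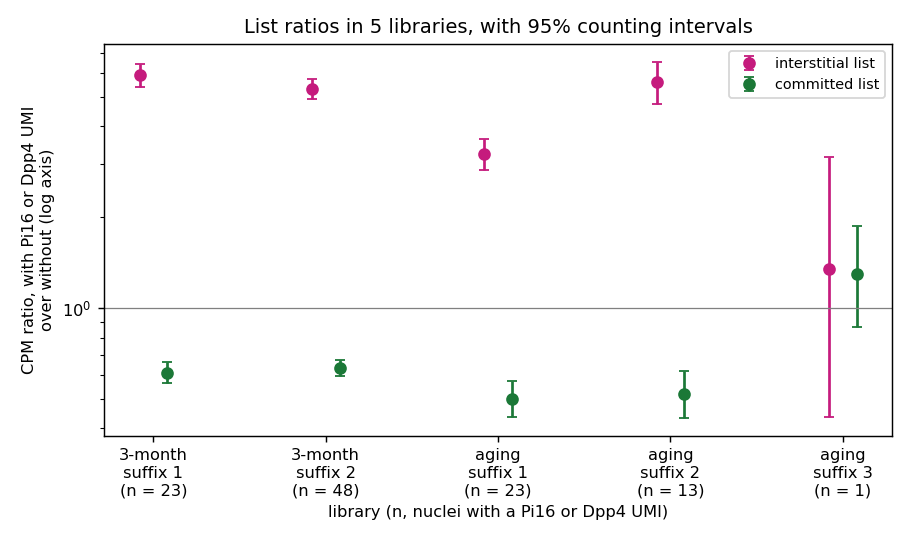
Summed CPM ratio (log axis) of the interstitial and committed lists, nuclei with a Pi16 or Dpp4 UMI over other stromal nuclei, in each of 5 libraries with 95% counting intervals. The interstitial ratio lies between 3.23 and 5.90 and the committed ratio between 0.502 and 0.636 in 4 libraries, and the library with 1 such nucleus has intervals that include 1 for both.

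Within the stromal nuclei the 2 libraries of 3-month iBAT differed in many genes. Of 7973 genes with at least 100 stromal UMIs, 6.05% were at least 2 times higher in suffix 2 and 10.1% at most 0.5 times as high. The second set held 5 of the 8 rule genes, whose summed UMIs chose the nuclei, so their values are a description. Lvrn was at 738 CPM in suffix 1 and 87.6 in suffix 2, a ratio of 0.119 (0.106 to 0.133). Dcn was at 791 and 178 CPM (ratio 0.225) and Pdgfra at 518 and 211 CPM (ratio 0.408). Egfr was at 1570 and 2367 CPM (ratio 1.51). Of 21 countable stromal genes outside the rule, 9 were lower in suffix 2 and 1, Igf1, was higher. Abca8a was at 1630 and 288 CPM (ratio 0.177) and Lama2 at 2524 and 849 CPM (ratio 0.336). Of 22 collagens, 12 were lower, among them the rule gene Col3a1, and Col6a6 the most with a ratio of 0.0529. The other two that passed were higher, Col18a1, the source of endostatin, at 29.2 and 508 CPM (ratio 17.4, 13.5 to 22.9) and Col23a1 at 8.28 and 24.3 CPM.

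Several of the ligands were higher in suffix 2. Slit2 was at 33.1 and 408 CPM (ratio 12.3, 9.68 to 15.9), Hgf at 18.0 and 80.3 (ratio 4.46) and Igf1 at 52.1 and 135 (ratio 2.60). In all, 6 of 26 ligands were higher (23.1%, beside 6.05% of all genes) and 7 were lower (26.9%, beside 10.1%). Among the lower ones was Csf1, the macrophage growth factor gene, at 51.6 and 18.5 CPM (ratio 0.358). The oestrogen receptor gene Esr1 was at 224 and 541 CPM (ratio 2.42).

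Ordered by the suffix ratio in stromal nuclei relative to that in adipocyte nuclei, the genes furthest up included Syndig1, at 4.38 and 82.0 CPM (ratio 18.7, against 0.226 in adipocyte nuclei), Adamts17 at 2.92 and 53.3 CPM (18.2, against 0.789) and Enah, an actin regulator gene, at 30.7 and 350 CPM (11.4, against 1.02). Those furthest down included Aldh1a1, a retinoic acid synthesis gene, at 669 and 105 CPM (0.156, against 20.8) and Blnk at 155 and 11.8 CPM (0.0760, against 7.86).

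The mix of nuclei moved with this difference. Subgroup 2 was almost wholly of suffix 2, and the stromal nuclei reached down to 525 UMIs there and to 2073 in suffix 1. Within subgroup 1, with 234 and 272 nuclei of the 2 libraries, the stromal genes outside the rule summed to a ratio of 0.601 (0.586 to 0.616), as large as the 0.604 (0.594 to 0.613) over all stromal nuclei, and without the 246 adipocyte- and muscle-rich nuclei it was 0.524. Within subgroup 1 Lvrn had a ratio of 0.0760, Dcn 0.299, Pdgfra 0.521, Col18a1 5.58 and Slit2 15.02. In adipocyte nuclei the same comparison gave a median ratio of 2.74 over the 21 stromal genes, and Fgf10 was at 5.14 and 151 CPM there, a ratio of 29.5 beside 5.63 in stromal nuclei. The part of this difference between the adipocyte barcodes in the stromal values was not tested. Whether any of this belongs to genotype, animal or preparation cannot be told apart.

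**Figure D5:**
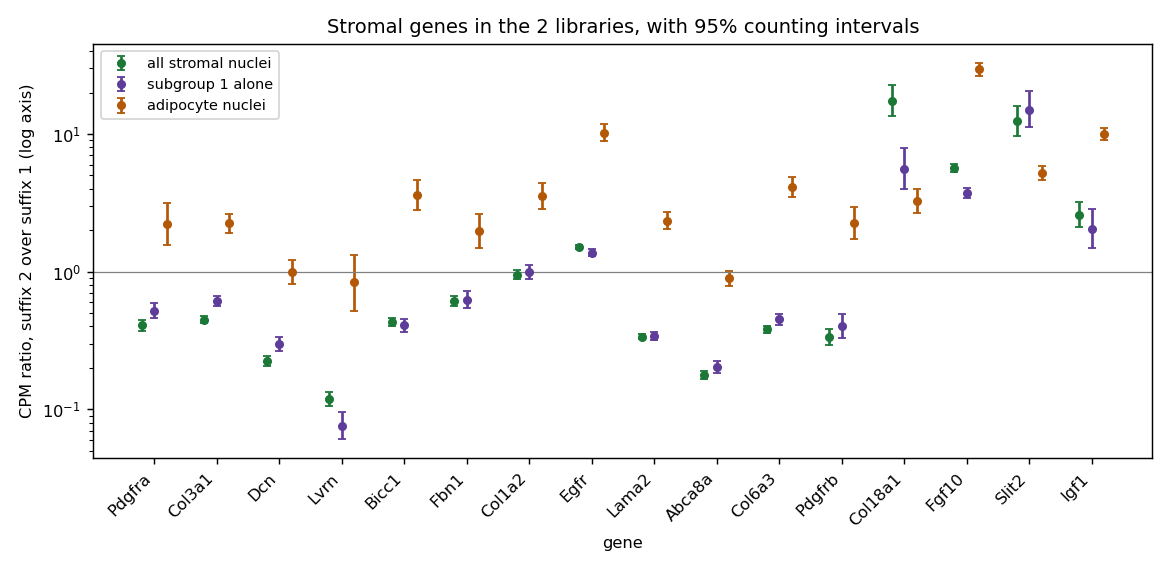
CPM ratio of suffix 2 over suffix 1 (log axis) for 16 genes, in all stromal nuclei, in subgroup 1 alone and in adipocyte nuclei, with 95% counting intervals. Pdgfra, Col3a1, Dcn, Lvrn, Bicc1, Lama2, Abca8a, Col6a3 and Pdgfrb lie below 1 in both stromal sets, and Col18a1, Fgf10, Slit2 and Igf1 lie above it.

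Stx4a, the gene deleted in brown adipocytes of the Ucp1-STX4KO mice, had 462 UMIs in the stromal nuclei, 69.6 CPM in suffix 1 and 68.5 in suffix 2, a ratio of 0.984 (0.805 to 1.21). In adipocyte nuclei it was at 60.5 and 49.9 CPM, and these levels were not used to name a suffix. Of 11 genes the study follows in this tissue, 9 could be counted, 5 were higher in stromal than in adipocyte nuclei and 1, Ucp1, was lower (ratio 0.368), where 15.3% of all genes were higher and 13.3% lower. Casp4 was at 41.3 CPM with a ratio of 14.997, which was 56.0 within suffix 1 and 4.86 within suffix 2. The pore-forming gasdermin gene Gsdmd was at 12.8 CPM with a ratio of 38.1 (119 and 12.5 by suffix), and Il18 at 12.5 CPM with a ratio of 14.7 (33.0 and 5.59). Casp1 and Nlrp1b were at 7.60 and 4.62 CPM, from 51 and 31 UMIs, of which suffix 1 gave only 3 and 2. Casp1 was at 1.46 and 10.3 CPM by suffix, against 0.198 and 3.29 in adipocyte nuclei. Nlrp1b was at 0.974 and 6.23 CPM, against 0.409 and 3.94. Over the 9 countable genes the median ratio was 3.52 pooled, above the 2.38 within suffix 1 and the 1.58 within suffix 2. Of the 4 genes that could be counted against mural and against endothelial nuclei, Casp4 was higher than in mural nuclei (ratio 6.35), and none was higher than in endothelial nuclei, where Casp4 had a ratio of 1.33 (0.965 to 1.86). Casp1, Nlrp1b and Il18 had too few UMIs in these comparisons to be counted.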

How the data were processed

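Single nuclei of iBAT were profiled with the 10x Genomics 3' v3.1 chemistry. The authors aligned reads to mm10 and counted UMIs with Cell Ranger 6.1.2, and per the labels used Seurat 4.1.0 for their own clustering. The deposited matrices hold whole-number counts of UMIs per gene and nucleus, not normalized, with 2 libraries in the 3-month matrix and 3 in the aging matrix. The study's methods forced 10000 cells per library, and the 3-month matrix holds 11201 and 9106 barcodes with up to 88397 UMIs, so the upper UMI limit those methods state had not been applied to it and was not applied here. Whether introns or strand were counted, and the annotation release, are not given in the sources used here. Gene positions are from GENCODE M21 for GRCm38, matched by identifier for 414 of 414 named genes.

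Counts were summed over nuclei with pandas 2.3.3 and numpy 2.4.6 under Python 3.11.15, and intervals computed with scipy 1.17.1. Intervals are exact (Clopper-Pearson, Poisson or conditional binomial) at 95%, and a count of 0 was given a limit of 3 counts. PCR duplicates were removed by UMI, and the intervals leave out any spread between animals. Subgroups came from Leiden clustering (leidenalg 0.10.2) at resolution 0.5 on 15 neighbours in 20 principal components of 2000 variable genes. No doublet caller was run. Leaving out the 10% of stromal nuclei with the most UMIs was 1 of the alternatives. Genes were named only if they were on a list, among the 10 at either end of a comparison or among the 10 leading genes of a subgroup. The summing and interval steps were tested on simulated data. The members and lists were chosen with earlier results of these data known. No sample columns were left unmapped, but barcodes were kept as pooled because their suffix names no sample. Each list is given by its counts and some of its members, and some results are not reported here.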

Additional observations from a re-analysis of the deposited data

How the results depend on the processing

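None of the summed list ratios below turned its direction under the alternatives run. Shares have no direction to turn, and single genes were not judged in this way. The stromal share of 7.49% was 6.15% with 6 UMIs from at least 3 rule genes, 5.77% with no exclusion UMI, 3.53% in suffix 1 and 12.4% in suffix 2. Stromal genes outside the rule, 1.90 times their adipocyte level, gave 2.07 with 6 UMIs from 3 genes, 1.98 with no exclusion UMI, 2.16 without the 10% of nuclei with the most UMIs, 2.11 without the 10% with the highest adipocyte share, 2.72 and 1.43 in suffixes 1 and 2, 2.09 as a mean over nuclei and 2.07 thinned to 1000 UMIs. The share with Pi16 or Dpp4, 4.67%, was 2.87% thinned, 2.50% with at least 2 UMIs, and 2.96% for Pi16 alone and for Dpp4 alone. The interstitial ratio of 5.61 was 5.27 and 6.20 under the stricter rule genes and exclusion, 6.13 without the nuclei with the most UMIs, 5.99 as a mean, 7.37 thinned, 8.43 with at least 2 UMIs and 6.77 for Dpp4. The committed ratio of 0.606 was 0.641 and 0.560 under the stricter rule genes and exclusion, 0.636 in suffix 2, 0.575 as a mean, 0.537 thinned, 0.478 with at least 2 UMIs, 0.553 for Pi16 and 0.575 for Dpp4. The suffix ratio of stromal genes, 0.604, was 0.621 with 6 UMIs from 3 genes, 0.555 without the deepest nuclei, 0.545 without those of highest adipocyte share, 0.566 as a mean and 0.570 thinned. The cause of these shifts was not tested. Chosen after seeing the data, leaving out the adipocyte- and muscle-rich subgroups gave 6.28%, 2.25, 7.16, 0.513 and 0.524 for the share, the adipocyte, interstitial, committed and suffix ratios, and the aging nuclei gave 2.66%, 3.75 and 0.485 for the share, interstitial and committed ratios. No paired analysis was possible because the labels give 1 sample per group and the barcode suffixes name no sample. No replicate could be left out, and depth limits genes under 100 UMIs, which were not counted.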
